A study of Mus musculus with 16 samples.

Results

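The genes described here belong to the unfolded protein response and the integrated stress response, the programmes by which cells adjust protein folding and protein synthesis. They were chosen by name as 41 known members of these pathways, with earlier results of these data known. Of these, 38 were measured among 18820 genes. Ddit3 (CHOP), Atf5 and Pdia4 were not analysed here because their probe sets name several genes. The measured genes were grouped by role into 13 ER chaperones and foldases, 8 ATF4-type amino acid genes, 8 genes of the ATF4 circuit, 4 ER stress sensors and factors, and 5 genes of ER-associated degradation and UFMylation. RNA came from RAW264.7 cells, an established mouse macrophage-like line, and was measured on 16 whole-transcript microarrays, 4 per condition.

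The LPS+DHA5HT arrays held cells given lipopolysaccharide (LPS, a component of the outer membrane of Gram-negative bacteria) at 1 µg/ml together with docosahexaenoyl serotonin (DHA5HT, in which the n-3 fatty acid docosahexaenoic acid is joined to serotonin) at 1 µM. The LPS arrays held cells given LPS alone, the DHA5HT arrays cells given DHA5HT alone, and the control arrays cells given vehicle, at the same doses and for 24 h throughout. The labels name ethanol at 0.1% by volume for the control arrays and no vehicle for the other groups. Values are given as log2 intensities, with SD over the 4 arrays of a group as the error where no SE is named. A gene counts as higher or lower only where limma's Benjamini-Hochberg adjusted p over all 18820 genes was under 0.05, and every other difference is given as a value.

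In the unfolded protein response, unfolded proteins in the endoplasmic reticulum (ER) engage the membrane sensors IRE1 (gene Ern1), PERK (gene Eif2ak3) and ATF6, and the factors XBP1 and cleaved ATF6 then raise ER chaperones and degradation factors. PERK also phosphorylates the translation factor eIF2, as do kinases that respond to amino acid shortage, double-stranded RNA and heme shortage. This integrated stress response lowers general protein synthesis while ATF4 is translated, and ATF4 raises genes of amino acid supply and of its own feedback. In macrophages, Toll-like receptors are known to engage IRE1 and XBP1. Much of this control acts on translation, splicing and cleavage, which probe set intensities do not measure.

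The factors read different promoter elements, and the windows below show them in genes the results turn on. Each window runs from 250 bases before to 50 bases after the gene's start and was taken from RefSeq on GRCm38.p6, with 37 of the 41 genes matched. The C/EBP-ATF response element, which ATF4 binds with C/EBP partners, was searched as TGATGNAA on both strands (TTNCATCA on the other), and 3.97% of 32851 windows held it. Of the 37 matched genes, 6 held it, namely Asns, Chac1, Nupr1, Trib3, Herpud1 and Vldlr. Capitals mark the fixed letters of the match in these ATF4-type genes:
Asns, chr6:7693160-7693459, minus strand: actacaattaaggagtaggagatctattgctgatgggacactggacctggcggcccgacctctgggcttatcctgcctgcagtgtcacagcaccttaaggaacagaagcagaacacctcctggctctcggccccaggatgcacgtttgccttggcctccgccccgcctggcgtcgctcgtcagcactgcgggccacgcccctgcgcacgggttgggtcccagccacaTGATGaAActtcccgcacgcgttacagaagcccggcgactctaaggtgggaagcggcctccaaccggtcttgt
Chac1, chr2:119350992-119351291, plus strand: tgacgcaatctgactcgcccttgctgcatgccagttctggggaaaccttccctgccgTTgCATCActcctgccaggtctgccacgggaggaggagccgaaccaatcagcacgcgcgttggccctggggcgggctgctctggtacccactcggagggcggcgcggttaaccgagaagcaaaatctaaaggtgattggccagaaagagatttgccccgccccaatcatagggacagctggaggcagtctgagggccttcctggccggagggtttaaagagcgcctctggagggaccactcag
Nupr1, chr7:126625421-126625720, minus strand: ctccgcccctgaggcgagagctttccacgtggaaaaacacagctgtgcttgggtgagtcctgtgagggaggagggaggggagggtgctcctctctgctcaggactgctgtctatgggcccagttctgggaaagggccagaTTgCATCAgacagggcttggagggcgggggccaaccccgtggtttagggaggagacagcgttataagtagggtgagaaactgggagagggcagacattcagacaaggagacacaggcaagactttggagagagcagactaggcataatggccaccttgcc
Trib3, chr2:152344011-152344310, minus strand: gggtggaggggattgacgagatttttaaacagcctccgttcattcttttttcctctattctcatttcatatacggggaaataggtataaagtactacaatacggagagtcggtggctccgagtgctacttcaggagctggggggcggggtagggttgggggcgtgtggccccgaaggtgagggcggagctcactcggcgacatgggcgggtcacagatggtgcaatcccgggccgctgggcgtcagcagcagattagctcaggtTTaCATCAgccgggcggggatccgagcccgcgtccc

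The ER stress response element, bound by ATF6 or XBP1 together with NF-Y, was searched on both strands as a CCAAT box with the half-site CCACG after a gap of any 9 bases, and 0.119% of windows held it. It was found in 8 of the matched genes, Calr, Canx, Creld2, Dnajc3, Hsp90b1, Hspa5, Pdia6 and Syvn1, of which all but Syvn1 are chaperones or foldases. None of the 12 chaperone and foldase windows held the C/EBP-ATF element. With only 3.97% of all windows holding it, its absence from 12 windows is no contrast between roles. These 2 chaperone windows show the element with its fixed letters in capitals, with a pair of matches in Hsp90b1:
Hspa5, chr2:34771840-34772139, plus strand: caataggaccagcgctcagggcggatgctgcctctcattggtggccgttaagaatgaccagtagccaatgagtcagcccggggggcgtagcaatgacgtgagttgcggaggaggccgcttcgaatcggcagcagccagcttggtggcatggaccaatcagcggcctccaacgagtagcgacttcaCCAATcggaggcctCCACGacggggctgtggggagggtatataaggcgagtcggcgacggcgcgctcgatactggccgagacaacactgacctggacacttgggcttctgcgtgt
Hsp90b1, chr10:86705395-86705694, minus strand: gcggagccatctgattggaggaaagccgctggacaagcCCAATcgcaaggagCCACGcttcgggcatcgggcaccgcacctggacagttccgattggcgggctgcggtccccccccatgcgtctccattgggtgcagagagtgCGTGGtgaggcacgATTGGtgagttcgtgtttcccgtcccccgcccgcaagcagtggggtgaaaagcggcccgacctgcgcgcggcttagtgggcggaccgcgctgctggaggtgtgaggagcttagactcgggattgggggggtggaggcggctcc

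A shorter form of the ER element, with the box inverted to ATTGG and the half-site CCACG after a gap of any 1 base, was searched in the same way and held by 0.0365% of windows and by Dnajb11 and Herpud1. The Herpud1 window held both this form and the C/EBP-ATF element, which do not overlap and are both in capitals:
Herpud1, chr8:94386179-94386478, plus strand: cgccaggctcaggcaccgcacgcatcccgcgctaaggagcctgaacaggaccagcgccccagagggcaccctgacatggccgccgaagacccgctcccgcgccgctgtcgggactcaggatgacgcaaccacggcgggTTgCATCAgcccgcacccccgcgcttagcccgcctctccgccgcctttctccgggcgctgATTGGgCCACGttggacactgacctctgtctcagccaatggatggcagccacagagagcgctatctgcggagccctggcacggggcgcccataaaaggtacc

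On the first principal component, which held 70.6% of the variance, the LPS+DHA5HT and LPS arrays lay apart from the DHA5HT and control arrays. LPS+DHA5HT array 4 stood apart on the second, at 22.42 against at most 9.36 for every other array. The title of LPS+DHA5HT array 1 names both agents while its treatment label names DHA5HT alone, and the title was followed. On the first component this array lay at −22.69, on the side of the LPS arrays (−36.21 to −31.35). The DHA5HT arrays lay at 30.99 to 33.58, so its values go with the title. The 10 macrophage markers had a median of 11.75 and 24 markers of lymphocytes, epithelium, fibroblasts and endothelium a median of 3.79, taken as the level of genes that these cells should lack. Vldlr, a lipoprotein receptor, lay at that level in every group (3.59 to 3.76), and Phgdh at 5.14 to 5.35 lay near the highest of those 24 markers (5.32). With 1 value per array, a change in a few cells and a smaller change in all cells cannot be told apart.

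LPS against control asks how activated macrophages set these pathways. Of the 38 genes, 18 were higher and 3 lower on the LPS arrays, 21 in all, beside 28.4% of all genes called (12.6% higher and 15.8% lower). Their median log2 change was 0.19, against 0.004 over all genes. LPS+DHA5HT against DHA5HT gave the LPS response with DHA5HT present, on separate arrays and with the DHA5HT arrays as baseline. The spread for both comparisons came from the same fit over all 16 arrays. There 22 genes were higher and 1 lower, beside 28.1% of all genes (12.4% higher and 15.7% lower). The median was 0.32 against −0.004 over all genes. All 18 genes called higher on the LPS arrays were also called higher in this comparison, as 81.8% of its 22. The additional 4 were Atf4, Manf, Pdia6 and Sdf2l1. Without LPS+DHA5HT array 1, the array with conflicting labels, 23 genes were higher and 1 lower in this comparison. Fitted on its own arrays alone it gave 19 higher and 1 lower, and Cebpg, Sdf2l1 and Pdia6 were not called. Eif2ak3 was called lower in both comparisons, while Dnajc3 and Edem1 passed in LPS against control and not in LPS+DHA5HT against DHA5HT. The test of the difference between the comparisons did not pass for Dnajc3 (0.18, adjusted p = 0.695) or Edem1 (0.12, adjusted p = 0.797).

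The amino acid genes and the chaperones gave different counts. Of the 8 amino acid genes, 5 were higher and none lower on the LPS arrays, with a median change of 0.33. Of the 13 chaperones and foldases, 2 were higher and 1 lower, with a median of −0.02. Over all genes 12.6% were higher and 15.8% lower, so the chaperone count lay near the share of all genes. In LPS+DHA5HT against DHA5HT, 5 of 8 amino acid genes were higher, with a median of 0.39, beside 12.4% of all genes higher. Of the 13 chaperones 5 were higher, with a median of 0.17. Without LPS+DHA5HT array 4, the chaperone figures became 4 of 13 and a median of 0.08. The baseline there is the DHA5HT arrays, on which all 13 chaperones averaged below control, with a median difference of −0.20. The contrast between these roles was described and not tested.

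**Figure D1:**
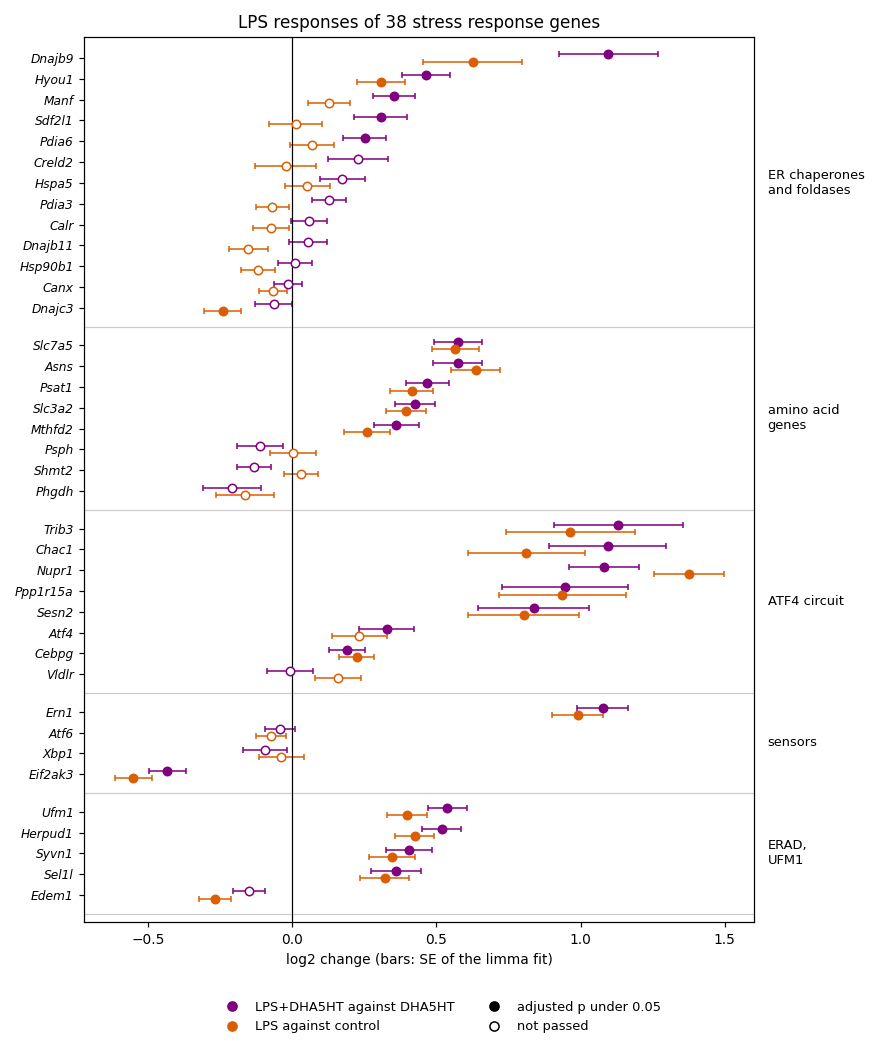
Log2 changes (x axis, points, bars SE of the limma fit) of the 38 measured genes (y axis, grouped by role) in LPS+DHA5HT against DHA5HT and in LPS against control, with filled points for adjusted p under 0.05. All amino acid and ATF4 circuit genes with filled points lie to the right of 0 in both comparisons, while most chaperones have open points near 0 in LPS against control.

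The ATF4 circuit had the highest median change of the 5 roles, 0.81. On the LPS arrays 6 of its 8 measured genes were higher and none lower, beside 12.6% of all genes higher and 15.8% lower. Nupr1, a small stress-induced chromatin protein, had 10.74, 10.81, 10.74 and 10.79 on the LPS arrays, against 9.26, 9.66, 9.13 and 9.54 on the control arrays. All LPS arrays lay more than 1 log2 unit above the highest control array, and the change was 1.38 (SE 0.12, adjusted p = 9.81e-08), or 2.59-fold. On the LPS+DHA5HT arrays it had 10.30, 10.47, 10.31 and 10.22, against 9.25, 9.43, 8.86 and 9.43 on the DHA5HT arrays, a change of 1.08 (SE 0.12, adjusted p = 1.96e-06). These groups did not overlap either.

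Trib3, a pseudokinase that binds ATF4 and CHOP and restrains them, had 8.85, 9.16, 8.74 and 9.23 on the LPS arrays, against 7.88, 8.38, 7.51 and 8.36 on the control arrays. The groups did not overlap, although the control arrays ranged widely, and the change was 0.96 (SE 0.22, adjusted p = 0.00281). Chac1, an enzyme that degrades glutathione, had 8.36, 8.44, 8.22 and 8.43 on the LPS arrays, against 7.41, 8.06, 6.95 and 7.79 on the control arrays. Control array 2 came nearest to the LPS arrays without crossing them, and the change was 0.81 (SE 0.20, adjusted p = 0.00499). Sesn2, a leucine sensor that restrains mTORC1, had 9.22, 9.41, 9.20 and 9.40 on the LPS arrays, against 8.29, 8.82, 7.99 and 8.92 on the control arrays. Again no array crossed, with a change of 0.80 (SE 0.19, adjusted p = 0.00373).

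Ppp1r15a, known as GADD34, brings a phosphatase to eIF2 and so reverses the translation block. It had 7.05, 7.58, 6.44 and 7.30 on the LPS arrays, against 5.95, 6.48, 5.80 and 6.38 on the control arrays. LPS array 3 lay just below control array 2, so the groups overlapped, and the change was 0.94 (SE 0.22, adjusted p = 0.00294). Cebpg, a C/EBP partner of ATF4, was higher by 0.22 (SE 0.06, adjusted p = 0.0105). The changes in LPS+DHA5HT against DHA5HT were 1.13 for Trib3, 1.09 for Chac1, 0.84 for Sesn2, 0.95 for Ppp1r15a and 0.19 for Cebpg, and each passed the test. The Cebpg call there was lost without LPS+DHA5HT array 2 or 3 or DHA5HT array 1 or 3, and with the compared arrays alone. Its adjusted p reached 0.11 over the alternatives.

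Atf4 itself had smaller differences at the transcript level. It had 10.13, 10.18, 10.01 and 10.01 on the LPS arrays, against 9.83, 10.01, 9.63 and 9.92 on the control arrays. The groups touched at control array 2, and the change of 0.23 (SE 0.10) did not pass (adjusted p = 0.0809). Atf4 was higher in 4 of 4 same-numbered pairs, although pairing is only a hint in this comparison. It was called under 5 alternative settings, among them the replicate block (adjusted p = 0.0104), with limma adjusted p up to 0.262 over the settings. In LPS+DHA5HT against DHA5HT the values were 10.05, 10.12, 9.88 and 9.86 against 9.60, 9.87, 9.45 and 9.69, a change of 0.33 (SE 0.10, adjusted p = 0.0144). DHA5HT array 2 overlapped the LPS+DHA5HT arrays, and the call was lost without LPS+DHA5HT array 2 or DHA5HT array 3. Vldlr, at the level of genes the cells should lack, did not pass in either comparison.

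**Figure D2:**
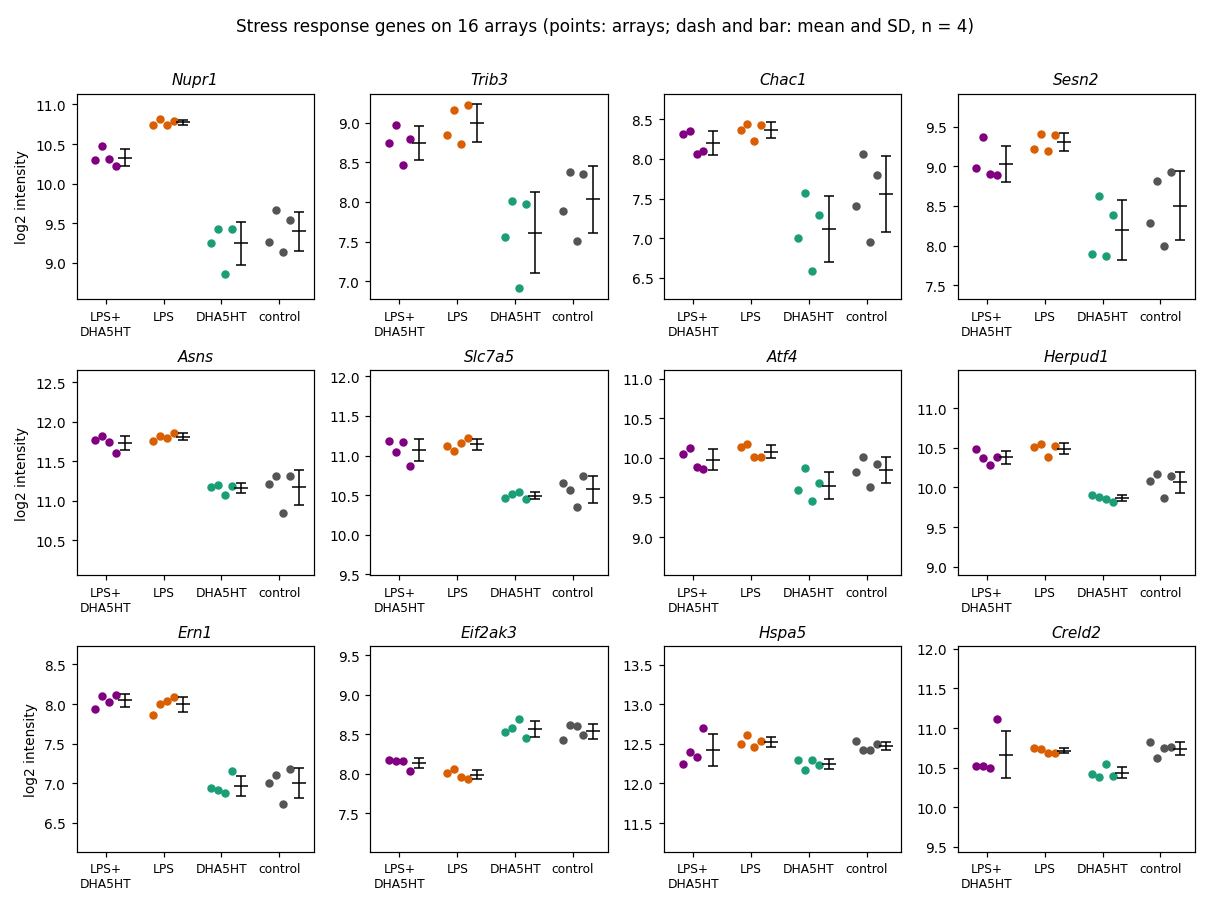
Log2 intensity (y axis, same span of 2.6 in every panel) of 12 genes on the 16 arrays (points, arrays 1 to 4 from left to right), with mean and SD (n = 4) beside each group. Nupr1, Asns, Slc7a5, Herpud1 and Ern1 show no overlap between the arrays with and without LPS, and Eif2ak3 lies lower with LPS. In Hspa5 and Creld2 the DHA5HT arrays lie below the control arrays, and LPS+DHA5HT array 4 lies highest.

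Among the amino acid genes, the largest change was in Asns, the synthetase that makes asparagine. It had 11.76, 11.82, 11.80 and 11.86 on the LPS arrays, against 11.22, 11.31, 10.85 and 11.31 on the control arrays. No array crossed, and the change was 0.64 (SE 0.09, adjusted p = 1.48e-05), or 1.55-fold. Slc7a5, the catalytic chain of the LAT1 transporter for large neutral amino acids, had 11.12, 11.06, 11.16 and 11.22 on the LPS arrays, against 10.65, 10.56, 10.35 and 10.74 on the control arrays. The change was 0.57 (SE 0.08, adjusted p = 3.19e-05), again without overlap. Its partner chain Slc3a2, which also pairs with the cystine transporter xCT, was higher by 0.40 (SE 0.07, adjusted p = 0.000225).

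The serine and one-carbon enzymes did not move as a block. Psat1, the transaminase of serine synthesis, was higher by 0.41 (SE 0.07, adjusted p = 0.000269), and its control array 3 lay at 10.81 while the other control arrays lay at 11.09 to 11.14. Mthfd2, a mitochondrial folate enzyme, was higher by 0.26 (SE 0.08, adjusted p = 0.0187), and this call was lost without LPS array 3 or control array 3. Phgdh, Psph and Shmt2, which act before and after Psat1 in making serine and glycine, changed by −0.16, 0.00 and 0.03, and none passed. For Phgdh the probe set used lay near the highest of the markers that should be absent, and its other probe sets gave 0.38 and 0.17, so its direction differed between probe sets. The same 5 genes were higher in LPS+DHA5HT against DHA5HT, with changes of 0.57 for Asns, 0.58 for Slc7a5, 0.43 for Slc3a2, 0.47 for Psat1 and 0.36 for Mthfd2.

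The sensors split. Ern1, which encodes the kinase and nuclease IRE1, had 7.86, 8.00, 8.03 and 8.09 on the LPS arrays, against 7.00, 7.10, 6.74 and 7.18 on the control arrays. The lowest LPS array stood well above the highest control array, and the change was 0.99 (SE 0.09, adjusted p = 1.13e-07), or 1.99-fold. Eif2ak3, which encodes the kinase PERK, had 8.00, 8.06, 7.96 and 7.93 on the LPS arrays, against 8.43, 8.62, 8.61 and 8.49 on the control arrays. Every LPS array was lower, with a change of −0.55 (SE 0.06, adjusted p = 3.19e-06). Ern1 was also higher in LPS+DHA5HT against DHA5HT, by 1.08 (SE 0.09), where Eif2ak3 fell by 0.43 (SE 0.06), and both passed. Xbp1, the factor whose transcript IRE1 splices, changed by −0.04 (adjusted p = 0.789) and Atf6 by −0.07 (adjusted p = 0.349), and a probe set value does not separate spliced from unspliced Xbp1.

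In ER-associated degradation, which returns misfolded proteins to the cytosol for the proteasome, 4 of 5 genes were higher and 1 lower on the LPS arrays. Over all genes 12.6% were higher and 15.8% lower. Herpud1, a membrane protein that organises the degradation complex, had 10.51, 10.54, 10.38 and 10.52 on the LPS arrays, against 10.09, 10.17, 9.87 and 10.14 on the control arrays. No array crossed, and the change was 0.42 (SE 0.07, adjusted p = 8.65e-05). The ubiquitin ligase Syvn1 (HRD1) was higher by 0.35 (SE 0.08, adjusted p = 0.00274) and its adaptor Sel1l by 0.32 (SE 0.09, adjusted p = 0.00804). Ufm1, a ubiquitin-like modifier that acts on ribosomes at the ER, was higher by 0.40 (SE 0.07, adjusted p = 0.000206).

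Edem1, a lectin that delivers glycoproteins to this pathway, went the other way. It had 10.90, 10.90, 10.92 and 10.96 on the LPS arrays, against 11.15, 11.24, 11.09 and 11.27 on the control arrays. All LPS arrays lay below all control arrays, with a change of −0.27 (SE 0.06, adjusted p = 0.00118). In LPS+DHA5HT against DHA5HT, Herpud1, Syvn1, Sel1l and Ufm1 were higher by 0.52, 0.40, 0.36 and 0.54, while Edem1 changed by −0.15 and did not pass (adjusted p = 0.0534).

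Most chaperones did not pass the test between the LPS and control arrays. For 4 of the 13 all LPS arrays lay below all control arrays, and for 3 they lay above. Over all 18820 genes these counts were 3028 and 2573. Hspa5, the main ER chaperone (BiP), had 12.49, 12.61, 12.46 and 12.54 on the LPS arrays, against 12.53, 12.43, 12.43 and 12.50 on the control arrays. The groups overlapped throughout, and the change was 0.05 (SE 0.08, adjusted p = 0.7). Hsp90b1 (GRP94), an ER member of the HSP90 family, changed by −0.12 (SE 0.06, adjusted p = 0.16), Calr by −0.07 (SE 0.06, adjusted p = 0.448) and Canx by −0.07 (SE 0.05, adjusted p = 0.391). Calr and Canx encode calreticulin and calnexin, lectins that retain glycoproteins until folded.

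The exceptions were co-chaperones and a BiP exchange factor. Dnajb9 (ERdj4), a co-chaperone that represses IRE1, had 8.23, 8.82, 8.21 and 8.34 on the LPS arrays, against 7.80, 7.86, 7.66 and 7.77 on the control arrays. The groups did not overlap, and the change was 0.63 (SE 0.17, adjusted p = 0.00935). Hyou1, a nucleotide exchange factor for BiP, was higher by 0.31 (SE 0.08, adjusted p = 0.00825). Dnajc3 (p58IPK), a co-chaperone and inhibitor of eIF2 kinases, had 9.70, 9.67, 9.72 and 9.69 on the LPS arrays, against 10.01, 9.82, 9.96 and 9.95 on the control arrays. Every LPS array was lower, with a change of −0.24 (SE 0.06, adjusted p = 0.00845).

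The foldases and secreted factors had small changes with adjusted p above the threshold. The disulfide isomerases Pdia3 and Pdia6 changed by −0.07 and 0.07, the BiP cofactor Dnajb11 by −0.15 and Sdf2l1, a partner of ER co-chaperones, by 0.01. Creld2 and Manf, ER proteins that are released under stress, changed by −0.02 and 0.13. In LPS+DHA5HT against DHA5HT, Dnajb9 and Hyou1 were higher by 1.10 and 0.46, and Manf (0.35), Sdf2l1 (0.31) and Pdia6 (0.25) also passed. Without LPS+DHA5HT array 4 those last changes were 0.27, 0.19 and 0.19, and Pdia6 no longer passed (adjusted p = 0.0706). With the compared arrays alone, neither Sdf2l1 nor Pdia6 passed. On the LPS+DHA5HT arrays Sdf2l1 and Pdia6 averaged 10.17 and 11.85, near their control means of 10.17 and 11.87. Their means on the DHA5HT arrays were 9.86 and 11.60. Manf averaged 8.46 on the LPS+DHA5HT arrays, 8.34 on the control arrays and 8.10 on the DHA5HT arrays.

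Set by promoter letters, 5 of the 6 genes with the C/EBP-ATF element were higher on the LPS arrays, with a median change of 0.72, and Vldlr did not pass. Over all genes 12.6% were higher and 28.4% called. Of the 8 genes with the ER stress response element, Syvn1 was higher, Dnajc3 was lower and 6 did not pass, with a median of −0.04, a count near the share of all genes. As 7 of these 8 are chaperones or foldases and 4 of those 6 belong to the ATF4 circuit, this split largely restates that by role. Herpud1, whose window holds both the short ER form and the C/EBP-ATF element, was higher, and Dnajb11, with the short ER form alone, was not. Ern1 and Eif2ak3, which moved in opposite directions, had none of these letters in their windows, as is the case for most windows. A match describes the letters of the window and says nothing of binding in these cells.

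Other genes of the same pathways were described from 9 companion lists, of whose 153 genes 135 were measured. In LPS against control 68 of the 135 (50.4%) were called, 64 higher and 4 lower, beside the 28.4% of all genes given above. The lists were chosen with earlier results of these data known, so this share is a description only. Of 17 cytosolic aminoacyl-tRNA synthetases, which load tRNAs with amino acids and include known ATF4 targets, 12 were higher and 2 lower in LPS against control, led by Wars (0.65), Rars (0.55) and Eprs (0.43). Of 17 other amino acid transport and synthesis genes, 9 were higher and none lower. Slc7a11, the catalytic chain of the cystine transporter that pairs with Slc3a2, was higher by 3.44 (SE 0.24, adjusted p = 4.86e-09), followed by the cysteine-forming enzyme Cth (1.76) and the neutral amino acid carrier Slc1a4 (1.04). Of 12 other ATF4 and CHOP targets, 7 were higher and none lower, led by Gadd45a (2.81), Jdp2 (1.22) and the translation repressor Eif4ebp1 (0.59). Of 12 eIF2 kinases, eIF2 subunits and eIF2B subunits, 3 were higher, namely Eif2b3 (0.66), the GCN2 inhibitor Impact (0.63) and Eif2s2 (0.23), and none lower, a share called of 25.0% that lies near that of all genes.

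On the ER side the shares called ran from 33.3% of the ATF6 and IRE1 partners to 58.8% of the translocation genes, the lowest of them close to the 28.4% of all genes. Of 17 translocation and signal peptide genes, 10 were higher and none lower, led by the translocon subunits Sec61a1 (0.56), Sec61b (0.51) and Sec61g (0.49). Of 18 other folding, glycan and redox genes, 8 were higher, led by Pdia5 (0.75) and Fkbp11 (0.54), and 1 was lower, the oxidase gene Ero1b (−0.53). Of 18 other degradation and UFM1 pathway genes, 6 were higher, led by Selenos (0.74), Edem2 (0.48) and Derl1 (0.40), and 1 was lower. Of 9 ATF6 and IRE1 partners, 3 were higher, Creb3l2 (0.88), Wfs1 (0.55) and Tmbim6 (0.40), and none lower. For comparison outside the ER, 6 of 15 cytosolic and mitochondrial heat shock genes were higher, led by Hspa4l (1.08), Lonp1 (0.59) and Hsph1 (0.38), and none lower, a share of 40.0%.

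LPS+DHA5HT against LPS asks what the conjugate did in activated cells, and it shares its LPS arrays with LPS against control. By limma, 0 of the 38 genes were called, beside 1.79% of all genes (0.818% higher and 0.972% lower). At an unadjusted p under 0.05 there were 3, Nupr1, Eif2ak3 and Ufm1, beside 13.7% of all genes. The change was negative for 26 of 38, with a median of −0.05 against 0.002 over all genes. Without LPS+DHA5HT array 1 the count called was also 0. By role the medians were −0.20 for the ATF4 circuit, −0.07 for the amino acid genes, −0.02 for the ER-associated degradation genes, −0.02 for the chaperones and 0.03 for the sensors.

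Nupr1 came nearest to the threshold. It had 10.30, 10.47, 10.31 and 10.22 on the LPS+DHA5HT arrays, against 10.74, 10.81, 10.74 and 10.79 on the LPS arrays. It was the only one of the 38 whose LPS+DHA5HT arrays all lay below the LPS arrays, beside 3.91% of all genes. The change was −0.45 (SE 0.12, unadjusted p = 0.0018, adjusted p = 0.0733), so it did not pass. Same-numbered arrays of these groups deviated together, and within these pairs the difference was −0.44, −0.34, −0.44 and −0.57. The pairing of array 4 is uncertain, since LPS+DHA5HT array 4 correlated slightly better with LPS array 2 (0.127) than with LPS array 4 (0.116). With the replicate number as a block Nupr1 was lower (SE 0.09, adjusted p = 0.0202), the only one of the 38 called. It was called in 3 further alternative settings, with adjusted p between 0.0202 and 0.191 over all settings. The next changes in size, Ppp1r15a (−0.39, SE 0.22), Dnajb9 (0.31, SE 0.17), Sesn2 (−0.27, SE 0.19) and Trib3 (−0.25, SE 0.22), had overlapping groups and adjusted p of 0.461 or more. Eif2ak3 and Ufm1 changed by 0.15 each (SE 0.06 and 0.07), with adjusted p of 0.323 and 0.336.

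The chaperone values in this comparison turned on LPS+DHA5HT array 4. Hspa5 had 12.25, 12.40, 12.34 and 12.70 on the LPS+DHA5HT arrays, against 12.49, 12.61, 12.46 and 12.54 on the LPS arrays. Creld2 had 10.52, 10.52, 10.50 and 11.11 on the LPS+DHA5HT arrays, against 10.75, 10.74, 10.69 and 10.69 on the LPS arrays. In both genes arrays 1 to 3 lay below every LPS array and array 4 above every LPS array. With all arrays the median chaperone change was −0.02 with 8 of 13 negative, and without array 4 it was −0.12 with 11 of 13 negative. Hspa5 changed by −0.10 with array 4 and −0.20 without it (adjusted p = 0.629 and 0.167), and Creld2 by −0.05 and −0.20 (adjusted p = 0.895 and 0.157).

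**Figure D3:**
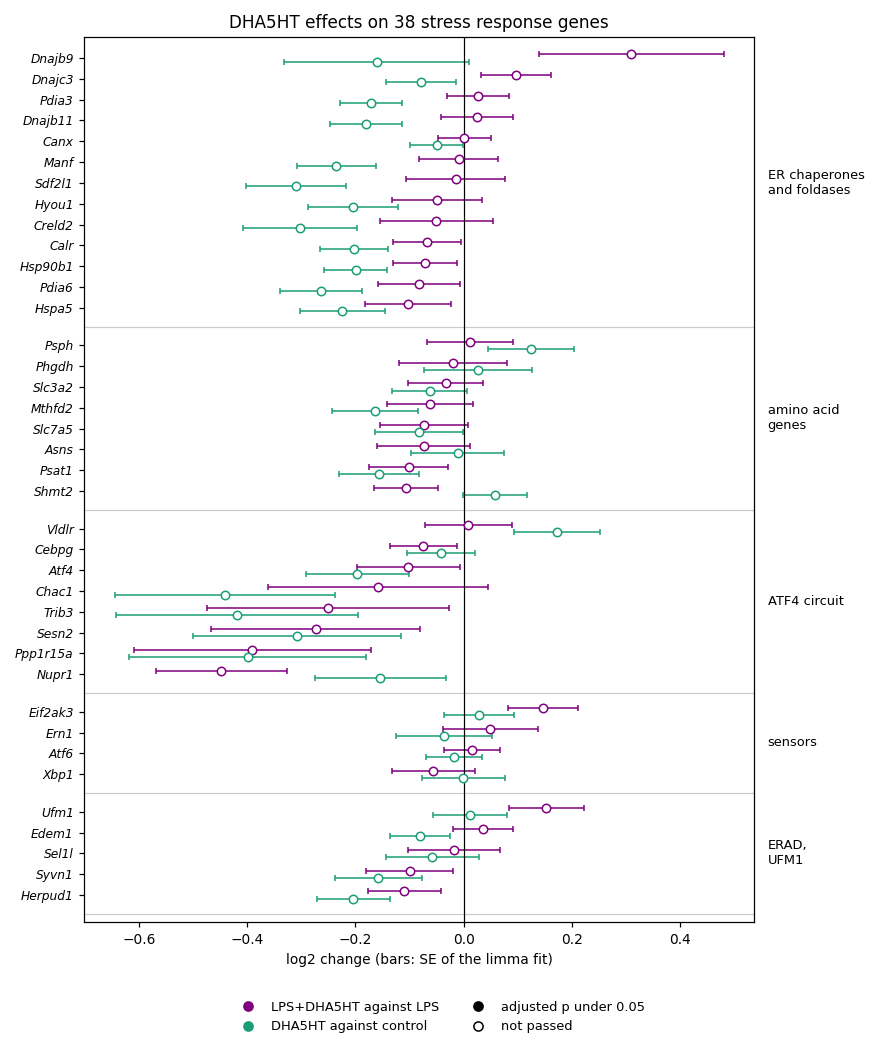
Log2 changes (x axis, points, bars SE of the limma fit) of the 38 measured genes (y axis, grouped by role) in LPS+DHA5HT against LPS and in DHA5HT against control. All points are open because no adjusted p was under 0.05, and the 13 chaperones all lie to the left of 0 in DHA5HT against control.

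Outside the 38 genes, 2 of 135 companion genes (1.48%) were called in LPS+DHA5HT against LPS, a share near the 1.79% of all genes. Bbc3 (PUMA), a pro-death BCL2 family gene among the ATF4 and CHOP targets, had 5.83, 5.62, 5.72 and 5.85 on the LPS+DHA5HT arrays, against 6.32, 6.26, 6.18 and 6.44 on the LPS arrays. The groups did not overlap, and the change was −0.55 (SE 0.08, adjusted p = 0.00195). Without LPS, Bbc3 averaged 5.78 ± 0.13 on the DHA5HT arrays and 5.74 ± 0.12 on the control arrays. The difference between these effects passed (−0.59, SE 0.11, adjusted p = 0.0331), as 1 of the 135 (0.741%), beside 0.329% of all genes. It contains the change of −0.55 just given, so it is not a separate observation. Hspa4l, an HSP110-type co-chaperone of the cytosol, had 8.03, 8.48, 8.35 and 8.14 on the LPS+DHA5HT arrays, against 8.64, 8.98, 8.76 and 8.89 on the LPS arrays, a change of −0.57 (SE 0.11, adjusted p = 0.0181). These groups did not overlap either.

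DHA5HT against control asks what the conjugate did in resting cells, and it shares its control arrays with LPS against control. By limma, 0 of the 38 genes were called, beside 0.6% of all genes (0.122% higher and 0.478% lower). At an unadjusted p under 0.05 there were 14, beside 9.85% of all genes, and 32 of 38 changes were negative, with a median of −0.16 against 0.01 over all genes. By role the medians were −0.25 for the ATF4 circuit, −0.20 for the chaperones, −0.08 for the degradation genes, −0.04 for the amino acid genes and −0.01 for the sensors.

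The chaperones shared the sign of their change. All 13 were lower in mean on the DHA5HT arrays, by −0.31 to −0.05, while 46.1% of all genes had a negative change. A lean to negative changes was not particular to the chaperones. It reached 87.5% in the ATF4 circuit, 86.7% in the heat shock genes outside the ER and 83.3% in the other folding, glycan and redox genes. Over the companion lists the negative share ran from 38.9% (other degradation and UFM1 pathway genes) to that 86.7%. Of the 13 chaperones, 10 had an unadjusted p under 0.05, none passed after adjustment, and the lowest adjusted p was 0.193 (Pdia6). For 8 of them all DHA5HT arrays lay below all control arrays, beside 2.85% of all genes. Hspa5 had 12.29, 12.17, 12.30 and 12.23 on the DHA5HT arrays, against 12.53, 12.43, 12.43 and 12.50 on the control arrays. Every DHA5HT array lay below every control array, and the change was −0.22 (SE 0.08, unadjusted p = 0.0113, adjusted p = 0.318).

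Sdf2l1 had 9.90, 9.81, 9.82 and 9.90 on the DHA5HT arrays, against 10.09, 10.26, 10.07 and 10.25 on the control arrays. Creld2 had 10.42, 10.39, 10.54 and 10.39 on the DHA5HT arrays, against 10.83, 10.62, 10.74 and 10.76 on the control arrays. Both were without overlap, with changes of −0.31 (SE 0.09, adjusted p = 0.21) and −0.30 (SE 0.10, adjusted p = 0.316). Hsp90b1, Hyou1, Manf, Pdia3 and Calr made up the rest of the 8, with changes of −0.24 to −0.17. Hsp90b1 was called lower under 1 alternative setting, an intensity trend in the spread (adjusted p = 0.0353).

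In the ATF4 circuit the DHA5HT and control arrays both ranged widely. Chac1 had 7.00, 7.57, 6.59 and 7.29 on the DHA5HT arrays, against 7.41, 8.06, 6.95 and 7.79 on the control arrays. The groups overlapped, and the change of −0.44 (SE 0.20) had an adjusted p of 0.497. Within same-numbered pairs, which deviated together here too, the difference was −0.41, −0.49, −0.36 and −0.50, and with the replicate block the adjusted p was 0.176. Trib3 had 7.55, 8.01, 6.91 and 7.98 on the DHA5HT arrays, against 7.88, 8.38, 7.51 and 8.36 on the control arrays, a change of −0.42 (SE 0.22, adjusted p = 0.569) with overlap as well. It too was lower in 4 of 4 pairs, by −0.60 to −0.33, with an adjusted p of 0.0944 under the block. Asns changed by −0.01 (SE 0.09) and Ern1 by −0.04 (SE 0.09), beside changes of 0.64 and 0.99 in LPS against control. Of the 135 companion genes 1 was called (0.741%, near the 0.6% of all genes), Eif2ak2, the double-stranded RNA kinase PKR, named here after its values were seen. It had 9.06, 8.97, 9.06 and 9.30 on the DHA5HT arrays, against 9.71, 9.64, 9.62 and 9.68 on the control arrays, a change of −0.56 (SE 0.11, adjusted p = 0.0144) without overlap.

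The difference between the conjugate's effects with and without LPS was tested as an interaction. By limma, 0 of the 38 genes were called, beside 0.329% of all genes, and the lowest adjusted p was 0.573. At an unadjusted p under 0.05 there were 4, beside 7.65% of all genes, and all 4 were chaperones or foldases, namely Pdia3 (0.20), Sdf2l1 (0.29), Dnajb11 (0.21) and Manf (0.23). The difference was positive for 13 of 13 chaperones, from 0.05 to 0.47 with a median of 0.18, and the median was 0.11 without LPS+DHA5HT array 4. Over all genes 51.5% of differences were negative. The difference subtracts the change in DHA5HT against control, which was negative for all 13 chaperones, so these shared signs are not separate observations. For Nupr1 the difference was −0.29 (SE 0.17, adjusted p = 0.735). The effects with and without LPS were therefore not shown to differ for any of these genes.

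As means over the genes of a role, set against the control mean of each gene, the chaperones stood at −0.09, 0.02, −0.06 and 0.27 on the LPS+DHA5HT arrays, 0.01 to 0.07 on the LPS arrays, −0.23 to −0.17 on the DHA5HT arrays and −0.03 to 0.05 on the control arrays. The DHA5HT arrays lay below all others, and LPS+DHA5HT array 4 lay above all others. The amino acid genes stood at 0.14 to 0.26 on the LPS+DHA5HT arrays, 0.21 to 0.30 on the LPS arrays, −0.09 to 0.02 on the DHA5HT arrays and −0.14 to 0.06 on the control arrays. For this role the arrays with LPS and those without it did not overlap. The ATF4 circuit stood at 0.35 to 0.65 on the LPS+DHA5HT arrays, 0.55 to 0.81 on the LPS arrays, −0.51 to 0.00 on the DHA5HT arrays and −0.33 to 0.25 on the control arrays, again with no overlap between the arrays with and without LPS.

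**Figure D4:**
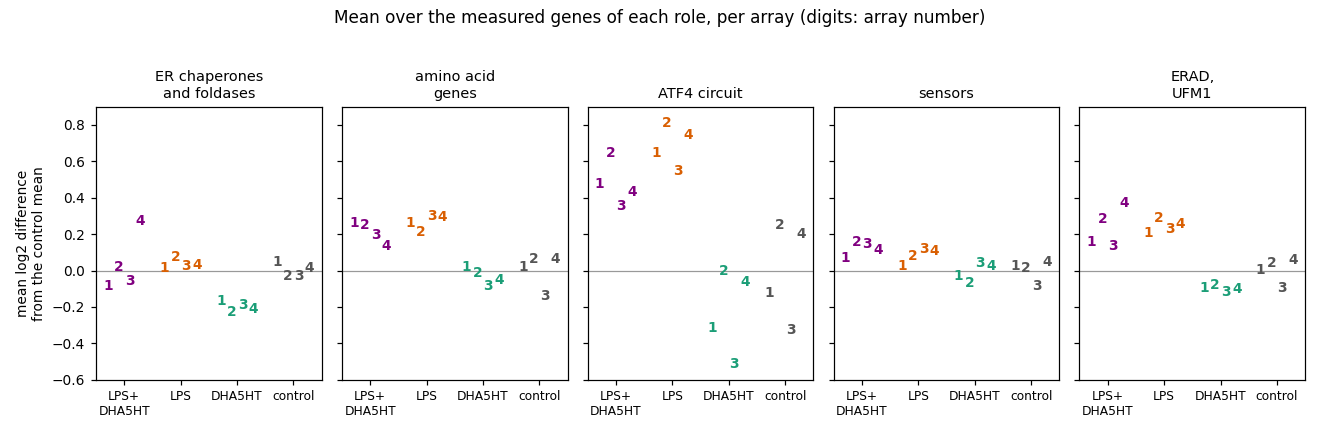
Mean log2 difference from the control mean (y axis) over the measured genes of each of the 5 roles (panels), with each digit an array's number within its group (x axis). The chaperone panel shows the DHA5HT arrays lowest and LPS+DHA5HT array 4 highest, and the amino acid and ATF4 circuit panels show both groups with LPS above both groups without it.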

How the data were processed

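The authors deposited log2 intensities, made with RMA per the submitters' processing notes. The RMA version, any filter and a genome build for the values were not given in the sources used here. RMA puts all arrays on a common distribution, so a shift of most genes in one direction would be removed. Probe sets that name exactly 1 gene in the array's gene table were kept (21218 of 35556), and the brightest over 16 arrays stood for each of 18820 genes.

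Groups followed the sample titles. A single limma model (version 3.58.1, R 4.3.3, two-sided) with a mean per group covered all 16 arrays and left 12 residual degrees of freedom. P-values were adjusted by Benjamini-Hochberg over 18820 genes in each of 5 comparisons, and the procedure was tested on simulated data. Separate cultures are not stated in the labels, and the p-values cover the spread between these arrays only, which may be technical, and precision is limited by the number of arrays. The members and companion lists were chosen with earlier results of these data known. All measured members were named, and from each companion list up to 3 called genes with the largest change in LPS against control and in LPS+DHA5HT against LPS. Other settings tried were an intensity trend, a replicate block, a filter on dim genes, quantile normalization, median centring, all probe sets, array weights, the compared arrays alone, a threshold of 0.01 and leaving out each array. Same-numbered arrays deviated together in LPS+DHA5HT against LPS (correlations of deviations 0.116 to 0.205) and in DHA5HT against control (0.131 to 0.183), a pairing taken from the data since the labels give numbers only. LPS+DHA5HT array 4 correlated slightly better with LPS array 2 (0.127) than with LPS array 4 (0.116), so that pair is uncertain. Dnajc3 has a pair of probe sets with identical values, counted once. Promoter letters came from RefSeq on GRCm38.p6. Figures used matplotlib 3.10.9 in Python 3.11.15.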

Additional observations from a re-analysis of the deposited data

Results flagged for a closer look

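In 11 of 152 gene and group combinations, a single array lay far from the other 3 of its group by Dixon's test. Chance flags about 1 in 20 groups, or 7.6 of 152. Of the 11, 5 fell on LPS+DHA5HT array 4, the array that stands apart over all genes. There Manf had 8.71 while the other arrays had 8.34 to 8.39, Creld2 had 11.11 beside 10.5 to 10.53, Pdia6 had 12.03 beside 11.78 to 11.82, Slc3a2 had 11.96 beside 11.65 to 11.7, and Eif2ak3 had 8.04 beside 8.16 to 8.18. Amino acid genes made up most of the rest. Mthfd2 had 11.39 on LPS array 3 beside 11.25 to 11.26, and 10.7 on DHA5HT array 3 beside 10.9 to 10.92. Asns had 11.07 on DHA5HT array 3 beside 11.18 to 11.2. Psat1 had 10.81 on control array 3 beside 11.09 to 11.14, and Psph had 6.4 on control array 1 beside 6.6 to 6.62. Sel1l had 9.86 on LPS array 1 beside 10.01 to 10.02.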

How the results depend on the processing

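The counts of called genes stayed within 1.5 times in LPS against control and in LPS+DHA5HT against DHA5HT under every alternative run, and no result reversed. Leaving out each array in turn gave 20 to 22 calls in LPS against control, 21 to 24 in LPS+DHA5HT against DHA5HT, and 0 in LPS+DHA5HT against LPS, in DHA5HT against control and in the interaction. With the replicate number as a block, the calls were 22 in LPS against control, 24 in LPS+DHA5HT against DHA5HT, 1 (Nupr1, lower) in LPS+DHA5HT against LPS and 0 in DHA5HT against control and in the interaction. LPS+DHA5HT against LPS also gave 1 call (Nupr1) with an intensity trend, with genes above the median gene only and with the compared arrays alone, and DHA5HT against control gave 1 (Hsp90b1) with an intensity trend; the cause was not tested. In LPS against control and LPS+DHA5HT against DHA5HT, 3 of 4 same-numbered pairs correlated over 0.1 (0.099 to 0.131 and 0.07 to 0.232), so there the numbers are only a hint of pairing (over all groups 42 of 48 correlated best with their own number); the block added the calls of Atf4 and of Edem1. Among the DHA5HT effects it changed no call but that of Nupr1. Median centring moved the split of all called genes from 2376 higher and 2970 lower to 3043 and 2468 in LPS against control, from 2333 and 2952 to 2800 and 2478 in LPS+DHA5HT against DHA5HT, and from 154 and 183 to 110 and 216 in LPS+DHA5HT against LPS. Of 357 settings of genes called in LPS against control, 353 kept the call, and of 391 in LPS+DHA5HT against DHA5HT, 376 did. Atf4 in LPS against control was called under 5 settings. RMA intensities carry no detection call, so genes near 3.79, such as Vldlr, have no lower bound here.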

Other observations

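The mean of the ATF4 circuit, set against the control mean, differed among arrays of one group in a like way in all 4 groups. Array 2 was highest and array 3 lowest, with 0.65 and 0.35 in LPS+DHA5HT, 0.81 and 0.55 in LPS, 0.00 and −0.51 in DHA5HT, and 0.25 and −0.33 in control. The labels do not say what arrays of one number share.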
